A study of Mus musculus with 6 samples.

Results

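The 10 genes examined here encode neuropeptides, peptide or orphan receptors and signalling proteins known from the medial habenula. They were *Gpr151*, *Tac1*, *Tac2*, *Gng8*, *Ano1*, *Sncg*, *Tafa4*, *Nppa*, *Npr1*, and *Spx*. They were taken by symbol from a matrix of 14477 genes, and all 10 were listed in it. They had been selected on their measured values in these same mice, so their difference between genotypes is given as a description with no test. Hippocampal RNA was sequenced from untreated mice, 1 library each, of which 3 were Phf21bΔ4/Δ4 (replicates 2, 3, and 6) and 3 were wild type, Phf21b+/+ (replicates 5, 7, and 8). Phf21bΔ4/Δ4 mice carry a CRISPR/Cas9 deletion in exon 4 of *Phf21b* throughout the body on a C57BL/6J background, and the study describes the line as a knockdown. PHF21B is a PHD finger protein that reads histone marks, and the comparison asks which hippocampal transcripts differ when it is depleted. The study used young adult littermates of both sexes, and the labels give neither age nor sex for these 6 mice, nor how the hippocampus was dissected.

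The medial habenula is a small nucleus of the epithalamus that lies close above the thalamus and beneath the dorsal hippocampus. Its dorsal neurons use the tachykinin substance P and its ventral neurons are cholinergic, and both send axons to the interpeduncular nucleus. Tachykinins are short amidated peptides cut from larger precursors, natriuretic peptides act through receptors that make cyclic GMP, and spexin is a ligand of galanin receptors. The hippocampus itself does not contain habenular neurons, and the tissue was labelled as hippocampus only.

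The 6 libraries held between 20495605 and 24881257 reads on the listed genes, and 3 reads, taken as the floor of detection, corresponded to between 0.127 and 0.143 CPM (reads scaled to library size). *Phf21b* itself stood at 2.15, 3.57, and 3.87 CPM in Phf21bΔ4/Δ4 replicates 2, 3, and 6. It stood at 6.5, 5.23, and 6.47 CPM in Phf21b+/+ replicates 5, 7, and 8. All 3 mutant values of *Phf21b* were below all 3 wild-type values, but the difference did not pass the test (log2 fold change -0.96, standard error 0.26, FDR 0.141 by limma). *Camk2a*, *Slc17a7*, and *Zbtb20*, chosen from 12 hippocampal neuron markers after their values were seen, were abundant in every library. Their abundance does not tell which tissue was taken with the hippocampus. Other genes of that list, given below, were lower in the mutant mice. Calls come from the limma fit over all genes, at FDR below 0.1 with more than 1.3-fold change, and 176 of 14477 genes (1.22%) were called in either direction.

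Each of the 10 genes was lower in every Phf21bΔ4/Δ4 mouse than in every Phf21b+/+ mouse. Over all listed genes 16.0% had their groups apart in this direction. The mutant mean ranged from 1.08% of the wild-type mean for *Nppa* to 58.8% for *Tac1*. It was under 10% of the wild-type mean for 5 genes (*Nppa*, *Gpr151*, *Gng8*, *Tafa4*, and *Tac2*). It was between 10% and 40% for 4 genes (*Sncg*, *Ano1*, *Npr1*, and *Spx*). The fit over all genes called 9 of the 10 lower and *Tac1* not, where 0.663% of all genes were called lower, and nothing is read from this count because the genes were selected on this contrast. Their median log2 fold change was -3.13, against -0.02 over all genes. The authors state that they kept genes that reached 1 CPM in 2 or more libraries, which 14439 of the 14477 genes did by the CPM computed here, and *Gng8*, *Tafa4*, *Nppa*, and *Spx*, which were under 1 CPM in every mutant mouse, could pass only through the wild-type mice.

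**Figure D1:**
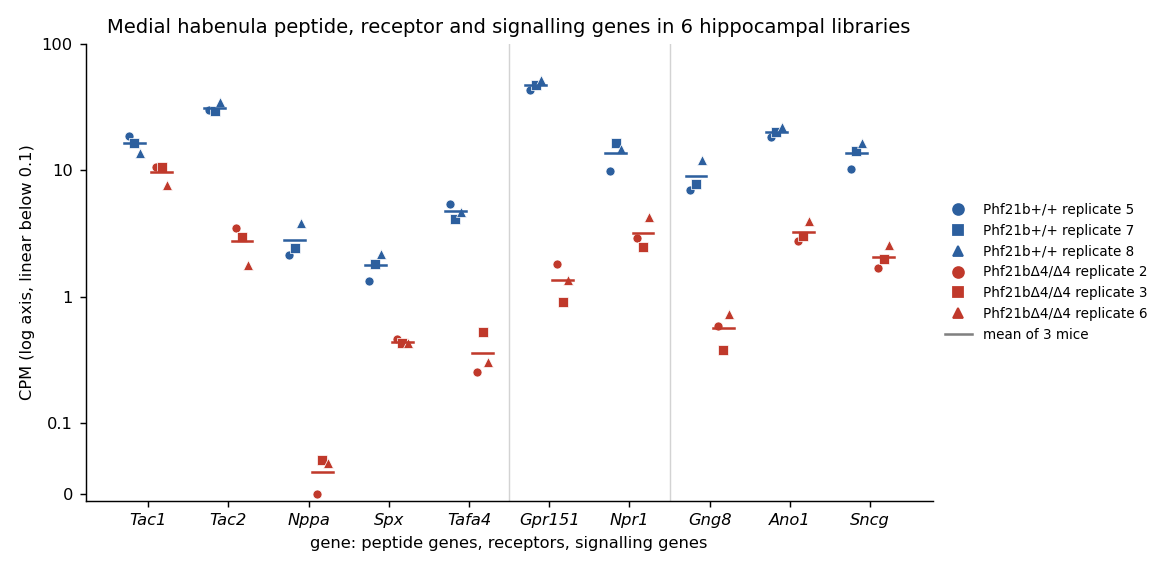
CPM of the 10 genes (vertical axis, logarithmic above 0.1 and linear below) in each of the 6 mice, with peptide genes, receptors and signalling genes separated by grey lines and horizontal bars for the mean of 3 mice. The 3 Phf21bΔ4/Δ4 values lie below the 3 Phf21b+/+ values for every gene, closest together for *Tac1* and farthest apart for *Nppa* and *Gpr151*.

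Of the peptide genes, *Tac1* and *Tac2* encode tachykinin precursors. *Tac1* lies on chromosome 6 from 7554879 to 7565834 and *Tac2* on chromosome 10 from 127724478 to 127731768 (GRCm38, plus strand for both). The coding segments for their peptides are shown because both genes make tachykinins yet differed in how far they fell short of the wild type. Capitals mark the 24 bases that encode the shared carboxy-terminal core, the glycine used for amidation and the pair of basic residues where the precursor is cut, and the lower-case bases are those just before them in the coding sequence. Exon numbers are those of the transcript named. The substance P segment lies in exon 3 of transcript Tac1-201 (chr6:7556732-7556773), and 3 of 4 coding transcripts contain it. The neurokinin A segment spans exons 4 and 5 of transcript Tac1-203 (7557743 to 7559139, in 2 of 4 coding transcripts). The neurokinin B segment spans exons 4 and 5 of transcript Tac2-201 (127728476 to 127729154, in 2 of 2).
Substance P: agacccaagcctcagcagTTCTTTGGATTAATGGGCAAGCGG
Neurokinin A: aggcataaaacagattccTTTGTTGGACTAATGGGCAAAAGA
Neurokinin B: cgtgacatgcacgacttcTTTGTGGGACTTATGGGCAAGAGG
Over the 24 capital bases, the substance P segment matched each of the other segments at 18 positions. The neurokinin A and neurokinin B segments matched at 20. The deposited values are totals per gene, so they do not separate *Tac1* transcripts with and without the neurokinin A segment.

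*Tac2*, the precursor of neurokinin B, stood at 30.3, 29.3, and 34.6 CPM in Phf21b+/+ replicates 5, 7, and 8. It stood at 3.5, 3.0, and 1.78 CPM in Phf21bΔ4/Δ4 replicates 2, 3, and 6. The lowest wild-type value was 8.37 times the highest mutant value (log2 fold change -3.56, standard error 0.25). *Tac1*, the precursor of substance P and neurokinin A, stood at 18.9, 16.6, and 13.7 CPM in the wild-type replicates 5, 7, and 8. It stood at 10.7, 10.6, and 7.66 CPM in the mutant replicates 2, 3, and 6. The groups of *Tac1* did not overlap but were close, the lowest wild-type mouse having 1.29 times the level of the highest mutant mouse (log2 fold change -0.77, standard error 0.18). Per kilobase of exon, *Tac2* made up 79.8%, 81.3%, and 86.2% of the summed level of both precursors in the wild-type mice and 44.7%, 41.1%, and 36.5% in the mutant mice. *Tac2* was thus the more abundant precursor in each wild-type mouse and *Tac1* in each mutant mouse.

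The tachykinin receptor genes listed were *Tacr1*, which encodes the substance P receptor, and *Tacr3*, which encodes the neurokinin B receptor. *Tacr1* stood at 2.80, 2.24, and 3.96 CPM in the wild-type mice and 1.52, 1.29, and 0.826 CPM in the mutant mice. Its groups did not overlap, but it was not called (log2 fold change -1.31, standard error 0.34, FDR 0.136, limma). *Tacr3* stood at 0.617, 0.928, and 0.629 CPM in the wild-type mice and 13.2, 8.72, and 0.304 CPM in mutant replicates 2, 3, and 6. The mutant mice were split, with replicates 2 and 3 far above the wild type and replicate 6 below it, and *Tacr3* was not called (log2 fold change 2.20, standard error 1.35, FDR 0.340).

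*Nppa* encodes the precursor of atrial natriuretic peptide. It lies on chromosome 4 from 148000722 to 148002079 on the plus strand. *Nppa* had 45, 58, and 86 reads in Phf21b+/+ replicates 5, 7, and 8, which is 2.14, 2.45, and 3.87 CPM. It had 0, 1, and 1 reads in Phf21bΔ4/Δ4 replicates 2, 3, and 6. The summed mutant reads came to 1.05% of the wild-type level, with an exact 95% interval from 0.126% to 3.84% that covers counting error only. The fitted log2 fold change of -6.93 (standard error 1.08) depends on the small count added before the log. An antisense gene, *Gm13054*, overlaps 61.5% of the *Nppa* exons, and since the strandedness of the counting is not given in the sources used here, reads of this pair cannot be told apart.

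*Spx* encodes spexin, and *Tafa4* a small secreted protein of the chemokine-like TAFA family. *Spx* lies on chromosome 6 from 142413441 to 142419730, and *Tafa4*, annotated there as *Fam19a4*, on chromosome 6 from 96831203 to 97060413. *Spx* was the least abundant of the 10 genes in CPM in the wild type, at 1.33, 1.81, and 2.20 CPM in replicates 5, 7, and 8. In the mutant mice it stood at 0.464, 0.429, and 0.435 CPM (log2 fold change -1.97, standard error 0.33). *Tafa4* stood at 5.41, 4.14, and 4.72 CPM in the wild-type mice. It stood at 0.253, 0.524, and 0.304 CPM in the mutant mice, which was 6, 11, and 7 reads (log2 fold change -3.77, standard error 0.35). Both genes were above the 3-read floor in every mutant mouse.

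The sequence before the start is shown for the peptide genes *Tac2* and *Nppa*, which stood under 10% of the wild-type level. It is also shown for *Tac1*, which stood highest against the wild type. *Tafa4* stood under 10% as well, but its window was searched and is not printed. The study raises CREB, which binds the palindrome TGACGTCA and its shorter form TGACG, so these motifs, the TATA motif TATAAA and the homeodomain motif ATTAAT were searched on both strands in the 250 bases before the RefSeq start (GRCm38.p6) of the 9 genes with a window used here, of which *Spx* had 2 windows. No window of *Gpr151* was used. Any TGACGTCA would also be counted as TGACG. Capitals mark matches. For *Tac1* only the 68 bases before the GENCODE start of the gene are printed.
Tac2 (chr10:127724228-127724477, plus strand): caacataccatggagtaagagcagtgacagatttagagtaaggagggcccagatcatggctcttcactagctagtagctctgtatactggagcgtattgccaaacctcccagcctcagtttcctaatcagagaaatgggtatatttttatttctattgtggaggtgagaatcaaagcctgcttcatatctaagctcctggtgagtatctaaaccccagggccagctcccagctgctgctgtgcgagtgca
Nppa (chr4:148000472-148000721, plus strand): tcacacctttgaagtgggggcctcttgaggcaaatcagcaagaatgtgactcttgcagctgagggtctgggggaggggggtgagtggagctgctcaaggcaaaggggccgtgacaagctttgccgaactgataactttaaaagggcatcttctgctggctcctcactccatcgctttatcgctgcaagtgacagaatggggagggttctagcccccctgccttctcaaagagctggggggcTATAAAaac
Tac1 (chr6:7554811-7554878, plus strand): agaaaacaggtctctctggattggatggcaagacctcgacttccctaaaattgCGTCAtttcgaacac
TGACGTCA was in a window of 0 of the 9 genes and in 1.55% of all 32851 RefSeq windows of this length. TGACG was in a window of 2 of the 9 (*Tac1* and 1 of the 2 windows of *Spx*) and in 17.8% of all windows. In *Tac1* it was at 197 and 43 bases before the RefSeq start, and in that window of *Spx* at 226. The *Tac1* match at 197 is the one marked above, whereas the match at 43 lies past the GENCODE start and is not printed. TATAAA was in 1 of the 9 (*Nppa*, 9 bases before the start) and in 12.4% of all windows. ATTAAT was in 0 of the 9 and in 4.39% of all windows. These matches describe the letters of the windows only.

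The receptors of the group were *Gpr151* and *Npr1*. *Gpr151* encodes an orphan G protein-coupled receptor that is concentrated in habenular neurons and their axons, and its single exon lies on chromosome 18 from 42577881 to 42579652 on the minus strand. It was the most abundant of the 10 genes, at 43.2, 47.6, and 51.7 CPM in the wild-type mice. In the mutant mice it stood at 1.81, 0.905, and 1.35 CPM, from 43, 19, and 31 reads. The wild-type mice differed by at most 1.20 times among themselves, whereas the lowest wild-type value was 23.8 times the highest mutant value (log2 fold change -5.18, standard error 0.25).

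*Npr1* encodes the guanylyl cyclase receptor for atrial natriuretic peptide and lies on chromosome 3 from 90450591 to 90465866. It stood at 9.96, 16.5, and 14.8 CPM in the wild-type mice and 2.95, 2.48, and 4.26 CPM in the mutant mice. The lowest wild-type mouse had 2.34 times the level of the highest mutant mouse (log2 fold change -2.10, standard error 0.27). The antisense gene *Gm16048* overlaps 11.7% of the *Npr1* exons. The ligand *Nppa* and its receptor *Npr1* were thus both lower in the mutant mice, *Nppa* to the floor and *Npr1* to 23.5% of the wild-type mean.

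The other natriuretic peptide genes were not called. *Npr2*, the receptor for C-type natriuretic peptide, stood at 26.6, 26.7, and 26.3 CPM in the wild-type mice and 23.4, 23.4, and 26.0 CPM in the mutant mice (log2 fold change -0.13, standard error 0.08, FDR 0.355, limma). *Npr3*, the clearance receptor, was at 56.8 CPM in wild-type replicate 7 against 14.8 and 19.6 CPM in replicates 5 and 8. It was at 63.4, 48.0, and 24.1 CPM in the mutant mice (log2 fold change 0.72, standard error 0.56, FDR 0.440). *Nppc*, the precursor of C-type natriuretic peptide, was likewise not called (log2 fold change 0.39, standard error 0.39, FDR 0.536). Per kilobase of exon, *Npr1* made up 24.5% ± 3.53 of the summed level of the 3 natriuretic receptors in the wild type and 6.57% ± 2.85 in the mutants (SD, n = 3 each). *Galr1*, the galanin receptor gene that was listed, was at 0.617, 1.94, and 0.989 CPM in the wild-type mice and 0.675, 1.62, and 0.261 CPM in the mutant mice, and it was not called (log2 fold change -0.68, standard error 0.75, FDR 0.581). The galanin receptor genes *Galr2* and *Galr3* were not listed, and *Galr1* is not given here as the receptor of spexin.

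The signalling genes were *Gng8*, which encodes a γ subunit of heterotrimeric G proteins, *Ano1*, which encodes a calcium-activated chloride channel, and *Sncg*, which encodes γ-synuclein. *Gng8* lies on chromosome 7 from 16891786 to 16895436, *Ano1* on chromosome 7 from 144588549 to 144751974, and *Sncg* on chromosome 14 from 34370274 to 34374789. *Gng8* stood at 7.02, 7.85, and 12.1 CPM in the wild-type mice and 0.590, 0.381, and 0.739 CPM in the mutant mice. Wild-type replicate 8 was apart from the other wild-type mice, yet the lowest wild-type mouse still had 9.50 times the level of the highest mutant mouse (log2 fold change -3.98, standard error 0.34). *Ano1* stood at 18.4, 20.3, and 22.1 CPM in the wild-type mice and 2.78, 3.05, and 4.0 CPM in the mutant mice (log2 fold change -2.64, standard error 0.17). *Sncg* stood at 10.2, 14.2, and 16.6 CPM in the wild-type mice. In the mutant mice it stood at 1.69, 2.0, and 2.57 CPM (log2 fold change -2.71, standard error 0.24).

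No paralog described here was called. Of the other γ subunits 8 were listed, from *Gng11* at a log2 fold change of -0.80 to *Gng4* at 0.68. Of the other anoctamins 7 were listed, from -0.43 for *Ano6* to 0.34 for *Ano8*. *Ano2*, the other calcium-activated chloride channel of the family, was at -0.37 (standard error 0.58, FDR 0.709, limma). *Sncb* (β-synuclein) was at 0.69 (standard error 0.38, FDR 0.300). Of the TAFA family, *Tafa1*, *Tafa2*, and *Tafa5* were at 0.24, -0.22, and 0.08.

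*Gng8*, *Ano1*, and *Tafa4* were minor members of their families in this tissue. Per kilobase of exon, *Gng8* made up 2.88% ± 0.709 of the 9 listed γ subunits in the wild type and 0.171% ± 0.0614 in the mutants (SD, n = 3 each). *Ano1* made up 5.30% ± 0.581 and 0.991% ± 0.110 of the 8 listed anoctamins, respectively. *Tafa4* made up 1.04% ± 0.081 and 0.0824% ± 0.0483 of the 4 listed TAFA genes.

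**Figure D2:**
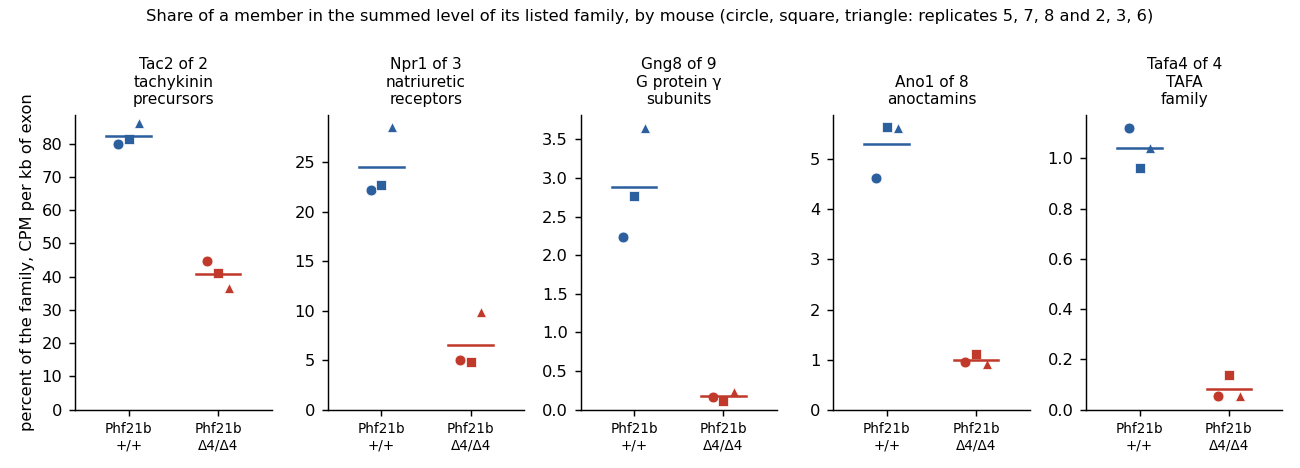
Share of 1 gene in the summed level (CPM per kilobase of exon, in percent) of its listed family in each of the 6 mice, with a panel per family, its own vertical axis from 0 and a bar for the mean of 3 mice. In all 5 panels the mutant mice lie below the wild-type mice, and *Tac2* moves from 82.4% to 40.8% of the tachykinin precursors.

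In the wild type the 10 genes differed widely in level per kilobase of exon. *Gpr151* (26.8 CPM per kb) and *Tac2* (22.8) were highest and overlapped in their ranges over the 3 mice. *Sncg* followed at 16.1 CPM per kb, apart from *Tac2* above and *Gng8* below it. From *Gng8* (5.92) through *Tac1* (4.83), *Nppa* (3.26), and *Ano1* (3.25) to *Npr1* (2.88), each gene overlapped with its neighbour. *Spx* (1.01) and *Tafa4* (0.835) were lowest and overlapped with each other. In the mutants *Tac1*, at 2.84 CPM per kb, was the highest of the 10, followed by *Sncg* at 2.45 and *Tac2* at 2.0.

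The wild-type mice held these genes in unequal amounts. Replicate 8 had the highest value of 7 of the 10 genes, and replicate 5 had the lowest value of 7, whereas over all listed genes replicate 8 was highest for 29.7% and replicate 5 lowest for 32.0%. *Tac1* and *Tafa4* did not share this order, both being highest in replicate 5. The highest wild-type mouse had between 1.18 times (*Tac2*) and 1.81 times (*Nppa*) the level of the lowest. Summed over the 10 genes, the wild-type mice stood at 147, 161, and 176 CPM and the mutant mice at 24.7, 23.4, and 23.1 CPM. Of the mutant sum, *Tac1* alone gave 10.7, 10.6, and 7.66 CPM.

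Genes outside the 10 whose values followed the same course across the 6 mice were sought by the distance of their log2 profile, centred on the mean of each gene, from the median profile of the 10. The nearest were *Gm13373* (root mean square distance 0.35 on the log2 scale), *Nhlh2* (0.40), *Tmem182* (0.43), *Cldn19* (0.45), and *Lrrc55* (0.45). *Gm13373* and *Tmem182* had 2, 2, and 3 reads in mutant replicates 2, 3, and 6, at or under the 3-read floor, so their place in this order rests on very few reads. Among the 10 themselves, *Ano1* (0.22) and *Sncg* (0.23) lay nearest to the median profile and *Nppa* (2.25), *Tac1* (1.17), and *Gpr151* (1.14) farthest. *Nhlh2*, a basic helix-loop-helix transcription factor gene, stood at 12.1, 13, and 13.1 CPM in the wild-type mice and 1.90, 0.905, and 1.39 CPM in the mutant mice. *Lrrc55*, an auxiliary subunit gene of potassium channels, stood at 75.0, 75.1, and 117 CPM in the wild-type mice and 9.91, 18.9, and 23.9 CPM in the mutant mice. This likeness is over 6 mice of the contrast that selected the 10 genes and is a description.

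Other markers of the medial habenula differed in the same direction. Of 14 such markers outside the 10 genes, 13 were called lower (limma), where 0.663% of all genes were, with a median log2 fold change of -4.46, or -4.12 with 4 genes near 0 placed at the 3-read floor. This list was made with earlier results of these mice known. *Chat*, *Slc18a3*, *Chrna3*, *Chrnb3*, *Chrnb4*, *Pou4f1*, *Irx1*, and *Irx2* were under 1 CPM in every mutant mouse. They could pass the filter of the authors only through the wild-type mice. Nothing is therefore read from the count called, the median or the FDR values of these markers. With 1 mouse left out, 9, 8, and 14 of the 14 were called without mutant replicates 2, 3, and 6, and 3, 3, and 2 without wild-type replicates 5, 7, and 8. The transcription factor genes *Irx2* and *Pou4f1* and the cholinergic genes *Chat* and *Slc18a3* had 1, 3, 1, and 1 reads, respectively, summed over the 3 mutant mice and 669, 1129, 348, and 186 over the 3 wild-type mice. *Chrna3*, a nicotinic receptor subunit gene, was at -5.41 on the log2 scale (standard error 0.29, FDR 0.0023, limma), and *Slc5a7*, the choline transporter gene, was at -3.96 (standard error 0.33, FDR 0.016). The other markers called lower were *Chrnb3*, *Chrnb4*, *Irx1*, *Nhlh2*, *Wif1*, *Syt15*, and *Lrrc55*, from -2.18 for *Wif1* to -5.93 for *Chrnb4*. *Nwd2*, the most abundant marker, was at 173, 128, and 216 CPM in the wild-type mice and 68.6, 84.6, and 42.2 CPM in the mutant mice and was not called (log2 fold change -1.43, standard error 0.29, FDR 0.116). Replicate 8 had the highest wild-type value of 13 of the 14 markers, as it had for 7 of the 10 genes. In bulk tissue, fewer cells of a type and less RNA per cell cannot be told apart.

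Markers of tissue that adjoins the hippocampus also differed between these libraries. Summed over 11 listed thalamic markers, the wild-type mice stood at 763, 651, and 420 CPM and the mutant mice at 264, 365, and 268 CPM. The thalamic transcription factor gene *Tcf7l2*, which habenular neurons also express, was called lower (log2 fold change -3.12, standard error 0.30, FDR 0.024, limma), and the other 10 were not called. Other genes of the list were not checked for expression in the habenula, so the sum does not separate thalamic from habenular RNA. Summed over 12 choroid plexus markers, wild-type replicates 7 and 8 stood at 16200 and 1020 CPM. Wild-type replicate 5 stood at 37.9 CPM and the mutant mice between 29.2 and 92.1 CPM. Most of the sum in replicates 7 and 8 came from *Ttr*, at 14500 and 872 CPM. Of the choroid plexus markers *Otx2* was called lower (log2 fold change -5.30, standard error 0.93, FDR 0.089), and *Kcnj13* and *Slc4a5* had 0 reads in mutant replicate 6. *Otx2* was under 1 CPM in every mutant mouse, so it could pass the filter of the authors only through the wild-type mice. With 1 mouse left out, *Tcf7l2* lost its call without wild-type replicate 7 (FDR 0.133), and *Otx2* kept its call without mutant replicate 6 only (FDR 0.029). The part that the tissue taken with the hippocampus had in the lower values of the 10 genes was not tested, and it cannot be told apart from genotype in these 6 mice.

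**Figure D3:**
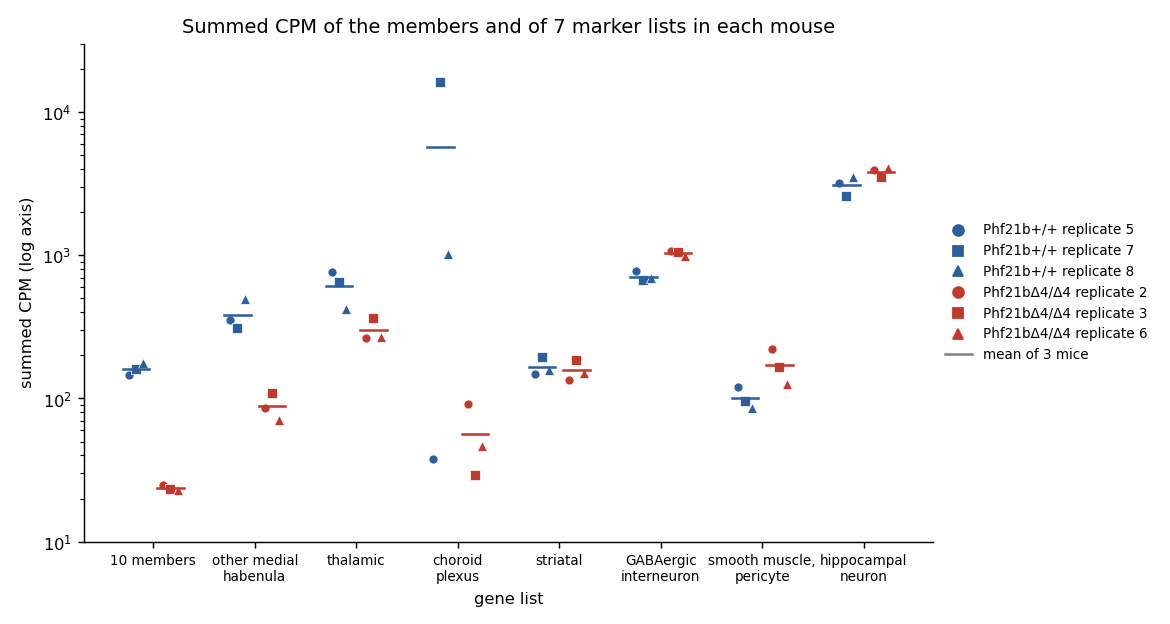
Summed CPM (logarithmic axis) of the 10 genes and of 7 lists of marker genes in each of the 6 mice, with bars for the mean of 3 mice. The sums of the 10 genes and of the other medial habenula markers lie apart between genotypes. The thalamic sum is lower in the mutants, and the choroid plexus sum is high in wild-type replicates 7 and 8 alone.

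Markers of the hippocampus and of other cells differed between these libraries in both directions. Summed over 12 hippocampal neuron markers, the mutant mice stood between 3510 and 4100 CPM and the wild-type mice between 2590 and 3550 CPM. Of these *Mpped1* (log2 fold change 1.42, standard error 0.23, FDR 0.072, limma) and *Fibcd1* (1.51, standard error 0.21, FDR 0.062), both of CA1 pyramidal neurons, were called higher. *Wfs1* and *Pou3f1* of the same list overlapped between genotypes and were not called (1.22 and 0.58, standard error 0.62 and 0.29, FDR 0.270 and 0.265). The dentate gyrus gene *Prox1* stood at 50.4 and 44.4 CPM in mutant replicates 2 and 3 against 110 CPM in mutant replicate 6 and 149, 115, and 134 CPM in the wild-type mice, the same mutant mice that stood apart for *Tacr3*. Its groups did not overlap, as those of the dentate gyrus gene *C1ql2* did not, but neither was called (log2 fold change -1.08 and -1.48, standard error 0.33 and 0.47, FDR 0.155 and 0.157), nor was *Dsp* (-1.91, standard error 0.67, FDR 0.172). By the fit, 4 of the 12 hippocampal neuron markers were below 0. Of 10 GABAergic interneuron markers *Gad2* was called higher (0.62, standard error 0.11, FDR 0.083) and 9 were not called. With 1 mouse left out, *Gad2* and *Mpped1* were called without mutant replicate 6 only (FDR 0.012 and 0.015), and *Fibcd1* without mutant replicate 2 (FDR 0.044) or 6 (FDR 0.017). The interneuron sum was between 988 and 1070 CPM in the mutant mice and between 669 and 772 CPM in the wild-type mice. Of 7 smooth muscle and pericyte markers 0 were called (limma), and their sum was between 126 and 222 CPM in the mutant mice and between 86.2 and 120 CPM in the wild-type mice. Of 8 striatal markers 0 were called, with their sum between 135 and 194 CPM in all 6 mice.

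Of all 42 listed partner genes of the 10 (receptors, ligands, paralogs, and genes for peptide processing and secretory granules), 1 was called, against 1.22% of all genes. This was *Vgf*, which encodes a secretory granule protein and peptide precursor, at 63.1, 45.5, and 54.7 CPM in the wild-type mice and 102, 119, and 86.8 CPM in the mutant mice (log2 fold change 0.91, standard error 0.16, FDR 0.084, limma). It was called in 1 of the 6 fits that left out 1 mouse, the one without mutant replicate 6 (FDR 0.022). The convertase, carboxypeptidase, and amidation genes that neuropeptide precursors pass through were not called, with *Pcsk1* at 0.27, *Pcsk2* at -0.05, *Cpe* at 0.23, and *Pam* at -0.07 on the log2 scale.

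Of 36 other neuropeptide precursor genes 18 were listed, and 1 was called, against 1.22% of all genes. *Adcyap1*, the precursor of PACAP, stood at 22.6, 17.7, and 20.0 CPM in the wild-type mice and 5.36, 7.76, and 3.31 CPM in the mutant mice (log2 fold change -1.96, standard error 0.30, FDR 0.069, limma), and it was called in 2 of the 6 fits without 1 mouse, those without mutant replicate 3 (FDR 0.073) and 6 (FDR 0.015). The median log2 fold change of the 18 was 0.18. Summed over these 18 genes, the mutant mice stood between 540 and 548 CPM and the wild-type mice between 375 and 479 CPM.

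**Figure D4:**
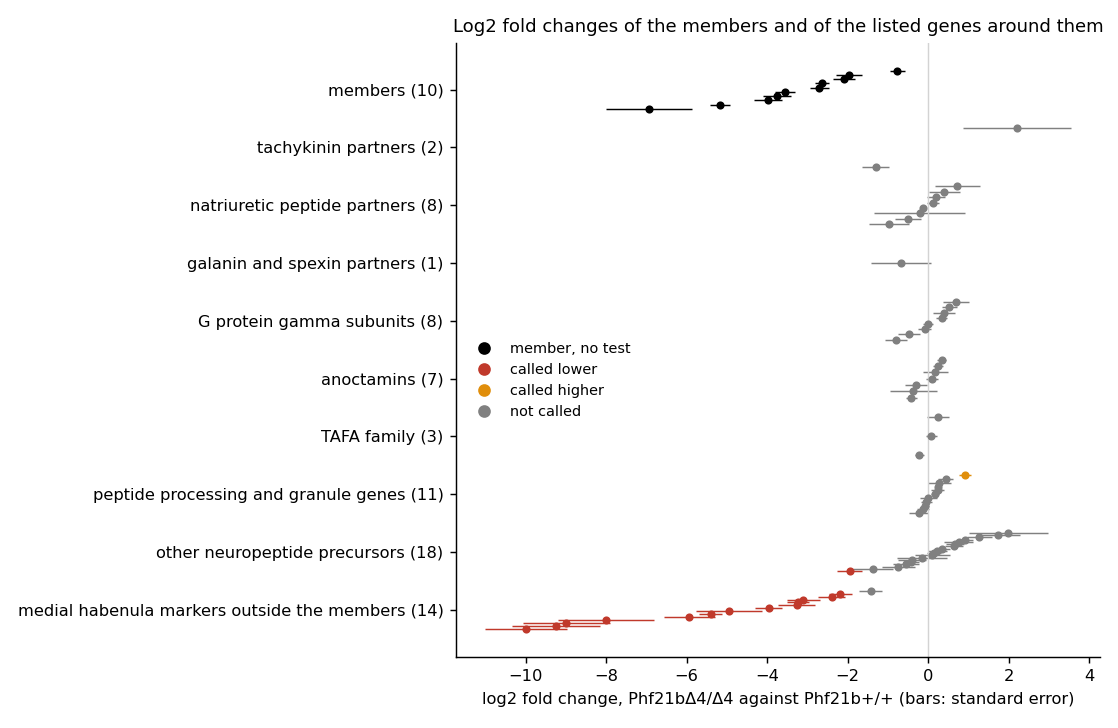
Log2 fold change with its standard error (horizontal axis, Phf21bΔ4/Δ4 against Phf21b+/+) of each gene in the lists named at the left. The number of genes listed is in parentheses. Colour marks the call of the fit over all genes, except for the 10 genes, which are all drawn in black. The 10 genes and the other medial habenula markers lie to the left of 0, whereas the genes of the other lists lie on both sides of 0, from *Adcyap1* at -1.96, called lower, to *Tacr3* at 2.20, not called.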

How the data were processed

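RNA-Seq values of 6 hippocampal libraries made by ribosomal RNA depletion were used. Per the labels and methods, the authors trimmed reads with Trimmomatic 0.39, mapped them to GRCm38 with STAR 2.7.3a, counted them with featureCounts (Subread 1.6.4), kept genes that reached 1 CPM in 2 or more samples as stated, and scaled to effective library size in edgeR. The deposited matrix holds log2 CPM. Whole reads were recovered from them for 100.0% of values within a tolerance of 0.1 read, and CPM here has the added count removed. The 14477 genes were fitted with limma 3.58.1 in R 4.3.3 (lmFit, eBayes with trend), 3 mice against 3, with Benjamini-Hochberg adjustment. The test of the study was not run, and limma was fitted to the deposited log2 values in its place, with voom on recovered reads as an alternative. The fit was checked on simulated reads with the same dispersion for all genes and with changes only in genes well above the floor. That check does not cover genes near the floor or genes that vary widely within a genotype. Nothing says whether the mice were processed as separate batches. Each p-value sets the genotype difference against the spread within genotypes, with the variance drawn toward a trend over all genes. Positions and exon lengths come from GENCODE M21 (14303 of 14477 symbols found), and upstream sequence from RefSeq. Python 3.11.15, pandas 2.3.3, and matplotlib 3.10.9 were used.

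The 10 genes and all lists were chosen with earlier results of these data known. Named in the text are the 10 genes, called partner and precursor genes, direct receptors, ligands and paralogs, marker genes called or at 0, and the 5 nearest profiles. Genes named to give the range of a list, and *Nwd2*, *Prox1*, *Wfs1*, *Pou3f1*, *Ttr*, *Camk2a*, *Slc17a7*, *Zbtb20*, and the peptide processing genes, were chosen after their values were seen. A paralog covered by these choices is not reported here. Alternatives were a common prior variance, arrayWeights, a filter at a mean log2 CPM of 1, log2(CPM + 1), quantile normalization, median centring, voom on recovered whole reads, FDR below 0.05, and leaving out each mouse.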

Additional observations from a re-analysis of the deposited data

How the results depend on the processing

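The study used littermates, but the labels name no litter or pair for these mice, so no paired analysis was possible. All 127 recomputed log2 fold changes of the 10 genes stayed below 0, and 113 stayed within 1 SD of the value given. Of the 14 that moved further, 8 did so with log2(CPM + 1), all toward 0. Of the 10 genes, between 3 (without wild-type replicate 8) and 10 (without mutant replicate 6) were called when 1 mouse was left out, with 4 called without wild-type replicate 7. These genes were selected on this contrast, so nothing is read from these counts. Among partner genes 0 were called with a common prior variance, with a filter at mean log2 CPM 1, or at an FDR under 0.05 (limma), 13 with arrayWeights, and between 0 and 12 with 1 mouse left out, where 1 was called otherwise. Over all genes 75 were called with a common prior variance, 3549 with arrayWeights, 101 with that filter, 25 at an FDR under 0.05, and between 9 (without wild-type replicate 8) and 2830 (without mutant replicate 6) with 1 mouse left out. The cause of these changes was not tested. Without adjustment, 3421 genes had p under 0.05.

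For the summed marker lists, the log2 ratio of mutant to wild type was -2.11 for the other medial habenula markers and -3.18 without *Nwd2*. It was -0.10 for striatal markers and -0.58 without *Pde10a*. For choroid plexus markers it was -4.1, and -2.66 without *Ttr*. With quantile normalization it moved from 0.55 to 0.44 for interneuron markers and from 0.31 to 0.091 for hippocampal neuron markers. With at most 1 read of *Nppa* per mutant library, the size of its fold change is poorly known.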
